A study of Penicillium oxalicum with 6 samples.

Results

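The genes described here averaged 0 to 0.967 FPKM in Penicillium oxalicum strain MuPOX05503 and 5.02 to 85.4 FPKM in strain Ku70 after 24 h on cellulose. They were chosen by these measured levels: a mean FPKM (fragments per gene, scaled by the authors to gene length and library depth) below 1 over the 3 MuPOX05503 libraries and of at least 5 over the 3 Ku70 libraries. POX05503 itself, the block POX09332 to POX09361 and genes in runs of at least 5 consecutive identifier numbers that all fell (R of -0.9 or lower, where R is the log2 ratio of mean FPKM + 1 in MuPOX05503 over that in Ku70) were left out. Of 9834 genes in the deposited tables, 40 met both levels and 37 remained, which is 0.487% of the 7595 genes with at least 5 FPKM in Ku70. The 3 left out were POX05503, POX09354 from the block and POX03931 from a run of 5.

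P. oxalicum, a filamentous fungus, releases enzymes that break down cellulose and xylan, and the series asks how protein kinases act on the expression of the genes for these enzymes. MuPOX05503 is labelled as mutated in POX05503, and Ku70 as mutated in Ku70, a gene of non-homologous end joining that is often removed in fungi to make gene replacement efficient. Spores of the Ku70 mutant are the only ones in the growth protocol of both strains, but the labels do not state whether MuPOX05503 carries the Ku70 mutation too, nor whether either strain is 1 transformant. Hyphae, about 1 g per 100 mL of medium with Avicel (microcrystalline cellulose; 1% in the titles), were kept at 28 °C on a shaker (180 rpm) for 24 h, and there were 3 libraries per strain.

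Protein kinases regulate other proteins by phosphorylating them, and in fungi such signalling reaches transcription factors that switch nutrient-dependent genes on or off. Many fungal genes are transcribed only under particular conditions, among them those of secondary metabolism, which often lie side by side on a chromosome and are expressed together. RNA sequencing measures the amount of a transcript, so reduced transcription and faster loss of the RNA give the same reading. In a culture, fewer cells with the transcript and less transcript per cell cannot be told apart.

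Total expected counts were 13653015.5 to 13843878.88 per library in MuPOX05503 and 13936580.31 to 14263916.17 in Ku70. POX05503 had a count of 0 in each MuPOX05503 library, against 470 to 539 in the Ku70 libraries. The files give identifiers without gene names. Of all 9834 identifiers, 0 matched the RefSeq gene table of P. oxalicum HP7-1, so the lack of a match is not particular to the 37. No product or function can therefore be given for any of them.

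The 37 genes were mostly weakly expressed in Ku70. Their mean FPKM there ran from 5.02 to 85.4 with a median of 9.07, whereas the median over all genes of at least 5 FPKM was 32.2. At least 20 FPKM was reached by 5 of the 37 (13.5%), beside 66.5% of all genes of at least 5 FPKM. The most abundant, POX01704, ranked 1727th of all 9834 genes in Ku70 and was the only one of the 37 with at least 50 FPKM there, beside 36.6% of all genes of at least 5 FPKM. Together the 37 had a summed level of 18.4 ± 2.12 FPKM in MuPOX05503 and 507 ± 54.8 FPKM in Ku70 (SD, n = 3 each), and took 0.00224 ± 0.000158% of all expected counts in MuPOX05503 and 0.0515 ± 0.00385% in Ku70. POX01704 alone made up 16.8% of the summed Ku70 level.

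**Figure D1:**
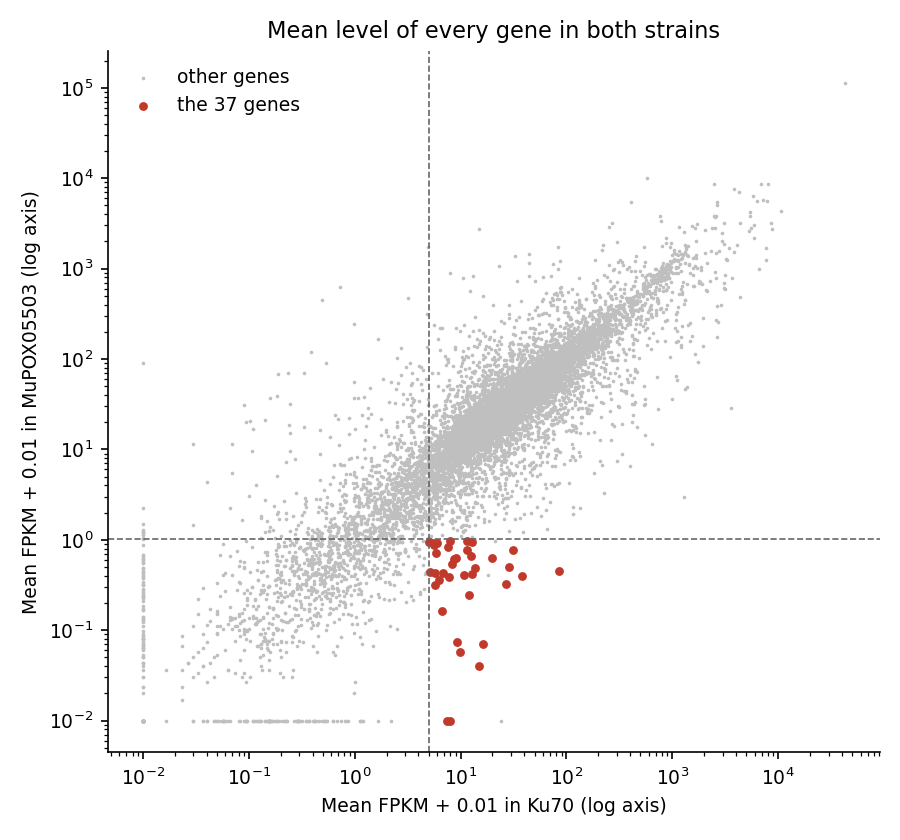
Mean FPKM + 0.01 of every gene in MuPOX05503 (vertical, log axis) against Ku70 (horizontal, log axis); dashed lines mark 1 FPKM in MuPOX05503 and 5 FPKM in Ku70. The 37 genes (red) fill the lower right quadrant by construction, most of them between 5.02 and 20 FPKM in Ku70, with POX01704 farthest to the right at 85.4 FPKM.

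Few of them were without reads in MuPOX05503, so most were strongly reduced rather than silent. A count of 0 in all 3 MuPOX05503 libraries was found for 1 gene, POX00308. A further 3 genes were at 0 in 2 libraries, 3 in 1 library and 30 had a count in every library. Those at 0 in 1 library include POX09831, whose expected counts summed to only 0.06, with an FPKM of 0 in all 3 MuPOX05503 libraries. The summed MuPOX05503 count was 3 or fewer in 6 genes, above 3 and up to 10 in 11 and above 10 in 20, the highest being 225. Relative to Ku70, the mean FPKM left in MuPOX05503 was under 2% in 11 genes, 2 to 5% in 7, 5 to 10% in 12 and at least 10% in 7, with a median of 5.21% and a highest value of 18.9%. The members thus ran from genes with no detected reads to genes with clear residual expression.

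Every one of the 37 had its lowest Ku70 library above its highest MuPOX05503 library. The choice by level made this likely, the share over all genes was not counted, and nothing is read from it. Among the 35 with a value above 0 in MuPOX05503, the lowest Ku70 value was 3.32 to 141 times the highest MuPOX05503 value, with a median of 10.4. All 37 passed the filter on low values used for testing, and did so through the Ku70 libraries. All 37 were called lower by edgeR (adjusted p under 0.05), where 32.6% of the 8801 genes tested were called lower; since the same contrast chose them, nothing is read from that count. Their fitted log2 fold changes, given as a description, lay between -9.97 and -2.51 with a median of -4.37, and those of genes with almost no MuPOX05503 reads depend on the prior count of the fit.

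**Figure D2:**
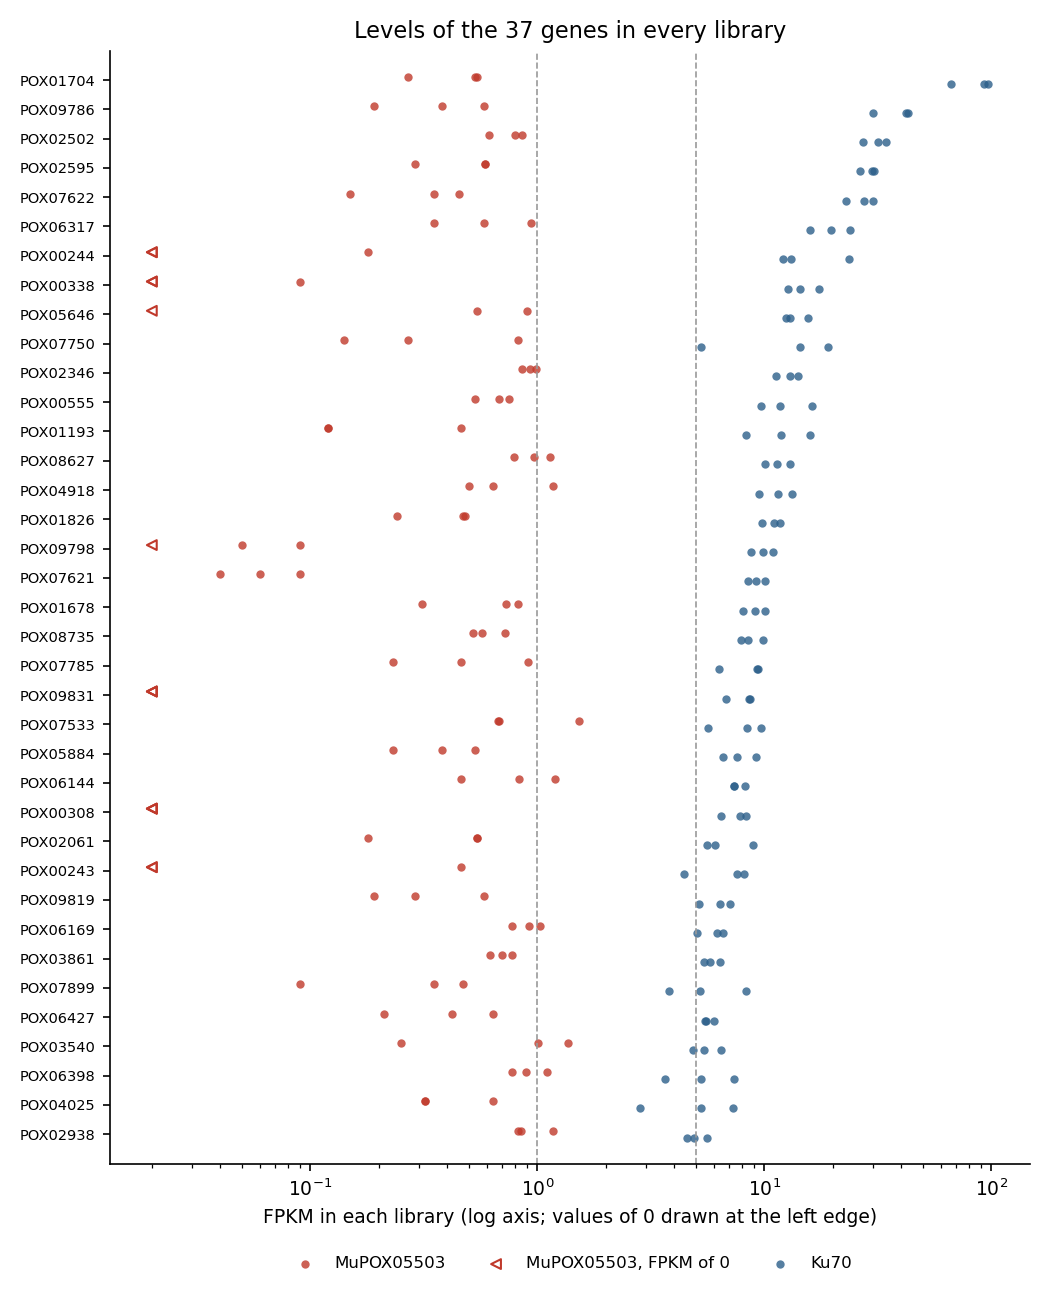
FPKM of each of the 37 genes (rows, by mean FPKM in Ku70) in the 3 MuPOX05503 libraries (red) and the 3 Ku70 libraries (blue), on a log axis; open triangles at the left edge stand for values of 0, and dashed lines mark 1 and 5 FPKM. The strains stay apart in every row, which the choice by level favours. Single libraries of 8 genes reach 1 FPKM or more in MuPOX05503, and single libraries of 6 genes fall under 5 FPKM in Ku70.

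In all, 5 genes exceeded 20 FPKM in Ku70. POX01704 had 0.53, 0.54 and 0.27 FPKM in the MuPOX05503 libraries, against 66.7, 92.8 and 96.7 FPKM in the Ku70 libraries. Its counts summed to 15 in MuPOX05503 and 2938 in Ku70, a 191-fold lower share of all counts (95% exact interval 116 to 342; such intervals cover counting error only). POX01704 was thus the gene with the widest distance in FPKM, and its lowest Ku70 library still held 123 times the level of its highest MuPOX05503 library.

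POX09786 had 0.38, 0.58 and 0.19 FPKM in MuPOX05503, against 30.04, 43.04 and 42.15 FPKM in Ku70, a 99.1-fold lower share of counts (interval 45.3 to 271). POX02502 had 0.61, 0.86 and 0.80 FPKM in MuPOX05503, against 27.1, 31.7 and 34.2 FPKM in Ku70, and was 41.0-fold lower (interval 29.6 to 58.5). In both genes every Ku70 library was at least 31.5 times the highest MuPOX05503 library. POX02595 had 0.29, 0.59 and 0.59 FPKM in MuPOX05503, against 30.5, 26.3 and 29.7 FPKM in Ku70. It is among the shortest of the 37, with an effective length of 248 bases, so its MuPOX05503 values stand for only 1 or 2 counts per library. POX07622 had 0.35, 0.15 and 0.45 FPKM in MuPOX05503, against 27.6, 30.2 and 23.0 FPKM in Ku70.

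Among the next genes in level, the spread between the Ku70 libraries differed widely. POX06317 had 0.58, 0.94 and 0.35 FPKM in MuPOX05503, against 19.8, 15.9 and 23.8 FPKM in Ku70. POX07750 had 0.27, 0.82 and 0.14 FPKM in MuPOX05503, against 5.25, 14.3 and 19.1 FPKM in Ku70. The highest Ku70 library of POX07750 was at 3.63 times the lowest, the widest spread within Ku70 among the 37, and the lowest was still at 6.402 times the highest MuPOX05503 library. POX05646 had 0.90, 0 and 0.54 FPKM in MuPOX05503, against 12.4, 12.9 and 15.6 FPKM in Ku70; its counts were not whole in 2 libraries, as happens when reads are shared with a near-identical sequence.

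Genes with the fewest MuPOX05503 reads were not the most abundant ones in Ku70. POX00308 had no count in any MuPOX05503 library, against counts of 44, 56 and 52 (6.45, 8.30 and 7.79 FPKM) in Ku70, and was at least 49.4-fold lower with a floor of 3 counts over the 3 MuPOX05503 libraries. POX09831 had expected counts of 0.04, 0 and 0.02 in MuPOX05503, against 132, 132 and 102 in Ku70, at least 119-fold lower with the same floor. The POX09831 counts were not whole in 5 of the 6 libraries, and how far its reads were shared with another sequence is not known.

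POX00338 and POX00244 each had a single count among the 3 MuPOX05503 libraries. POX00338 had 0.09, 0 and 0 FPKM in MuPOX05503, against 12.7, 14.4 and 17.5 FPKM in Ku70 (466-fold lower by counts, interval 83.2 to 18440). POX00244 had 0, 0 and 0.18 FPKM in MuPOX05503, against 12.1, 13.1 and 23.6 FPKM in Ku70 (276-fold lower, interval 49.1 to 10930). The upper ends of these intervals show how little a single count fixes the size of the change, whereas the lower ends were 49.1-fold or more. POX00243, with 2 counts in MuPOX05503, and POX09798, with 3, were 43.9-fold lower (interval 11.8 to 368) and 219-fold lower (interval 74.6 to 1065).

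At the other end stood genes with clear residual expression. POX02346 is the longest of the 37, at an effective length of 5899 bases, and had counts of 76, 69 and 80 in MuPOX05503, against 1088, 1166 and 926 in Ku70. Its level was 0.93, 0.86 and 0.99 FPKM in MuPOX05503, against 12.94, 14.03 and 11.26 FPKM in Ku70, 13.8-fold lower by counts (interval 12.03 to 15.84). It held 24.35% of all counts of the 37 in MuPOX05503, and its 3 MuPOX05503 libraries were nearly even.

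The members nearest to 1 FPKM in MuPOX05503 were POX08627, POX07533 and POX02938, with means of 0.967, 0.96 and 0.947 FPKM. POX08627 had 1.14, 0.97 and 0.79 FPKM in MuPOX05503, against 12.9, 10.1 and 11.4 FPKM in Ku70. POX07533 had 0.67, 0.68 and 1.53 FPKM in MuPOX05503, against 9.65, 5.63 and 8.36 FPKM in Ku70. Each of these had a MuPOX05503 library above 1 FPKM. Just outside this level lay POX05376, with means of 1.07 FPKM in MuPOX05503 and 12.9 FPKM in Ku70, and POX02051, with 1.09 and 5.22 FPKM. Counting both, 56 genes of at least 5 FPKM in Ku70 had 1 to 2 FPKM in MuPOX05503, so the level of 1 FPKM divides a continuous range.

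The members nearest to 5 FPKM in Ku70 were POX02938, POX04025 and POX06398. POX02938 had 0.85, 1.17 and 0.82 FPKM in MuPOX05503, against 4.56, 4.91 and 5.59 FPKM in Ku70, 5.30-fold lower by counts (interval 4.069 to 7.004). POX04025 had 0.64, 0.32 and 0.32 FPKM in MuPOX05503, against 5.26, 2.82 and 7.28 FPKM in Ku70. With an effective length of 227 bases, POX04025 rests on counts of 2, 1 and 1 in MuPOX05503, against 17, 9 and 23 in Ku70. POX06398 had 0.89, 1.10 and 0.77 FPKM in MuPOX05503, against 5.28, 3.65 and 7.37 FPKM in Ku70. Just outside lay POX04517, with means of 0.887 FPKM in MuPOX05503 and 4.76 FPKM in Ku70, and POX01417, with 0.427 and 4.70 FPKM.

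The other members were POX00555, POX01193, POX01678, POX01826, POX02061, POX03540, POX03861, POX04918, POX05884, POX06144, POX06169, POX06427, POX07621, POX07785, POX07899, POX08735 and POX09819. In MuPOX05503 their means ranged from 0.0633 FPKM in POX07621 to 0.907 FPKM in POX06169. In Ku70 they ranged from 5.58 FPKM in POX03540 to 12.6 FPKM in POX00555.

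Because every library took part in the choice, the levels were also read in libraries left out of it. Members and lists had been set with earlier results of these data known, so the libraries left out were not new data. The same rule was applied to 2 MuPOX05503 and 2 Ku70 libraries in each of the 9 possible ways, and the genes it chose were read in the pair left out. It chose 31 to 42 genes, of which 26 to 31 met both levels in the libraries left out. Every chosen gene was higher in the left-out Ku70 library than in the left-out MuPOX05503 library in all 9 cases. Genes chosen for so wide a gap in the other libraries could hardly reverse. The share of all genes higher in Ku70 was not counted, and nothing is read from this direction. The 9 cases share libraries, and separate cultures are not stated, so they are not independent of each other. In the left-out libraries the median level was 0.35 to 0.585 FPKM in MuPOX05503 and 7.62 to 11.0 FPKM in Ku70. The highest value in a left-out MuPOX05503 library was 2.77 FPKM, and the lowest in a left-out Ku70 library was 2.47 FPKM.

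Within Ku70 the typical spread of the 37 genes between libraries was wider than that of all genes of at least 5 FPKM, and they also had fewer counts. Their coefficient of variation over the 3 Ku70 libraries had a median of 14.9%, between 5.34% in POX06427 and 54.5% in POX07750, beside a median of 8.59% over all genes of at least 5 FPKM. Counting alone gives a median of 9.74% for the 37 and 4.02% for all those genes. Over 30% was reached by 6 of the 37, and the share of all genes of at least 5 FPKM over 30% was not counted. Their Ku70 libraries differed at least 2-fold in 4 genes (10.8%), beside 1.11% of all genes of at least 5 FPKM; these 4 were POX04025, POX06398, POX07750 and POX07899. Among the 5124 genes of at least 5 FPKM with a summed Ku70 count within the range of the 37, 49 to 3180, the median coefficient of variation was 9.11%. That range is wide, and genes were not matched to the 37 one by one on their counts.

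The Ku70 libraries differed in how often they gave the highest level. Ku70 replicate 3 was the highest in 18 genes (48.6%), replicate 2 in 14 (37.8%) and replicate 1 in 5 (13.5%). Over all genes of at least 5 FPKM these shares were 36.7%, 35.6% and 27.7%. The median log2 deviation of the 37 from their Ku70 mean was -0.14 in replicate 1, 0.03 in replicate 2 and 0.13 in replicate 3, beside -0.04, 0.02 and 0.02 over all those genes. In MuPOX05503 the summed counts of the 37 were 331.04, 307.95 and 285.02 in replicates 1, 2 and 3, so no single library held the residual reads.

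**Figure D3:**
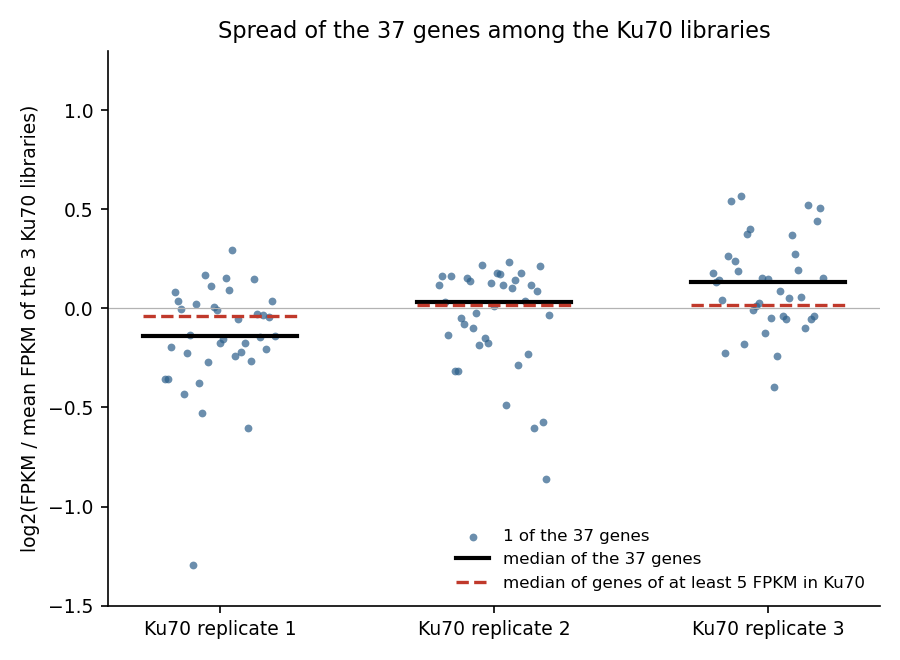
Log2 ratio of FPKM to the mean of the 3 Ku70 libraries for each of the 37 genes (points) by Ku70 library; black bars are the medians of the 37 and dashed red bars those of all genes of at least 5 FPKM in Ku70. The 37 sit lower in replicate 1 (median -0.14) and higher in replicate 3 (median 0.13), and the lowest point is POX07750 in replicate 1.

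The 37 genes tended to be short. The effective length implied by count, FPKM and library total had a median of 762 bases, from 227 in POX04025 to 5899 in POX02346, beside a median of 1272 bases over the 7592 genes of at least 5 FPKM with such a length. Under 500 bases were 12 of the 37 (32.4%), beside 13.0% of those genes. Among genes of at least 5 FPKM that did not exceed POX01704 in Ku70, 10.3% were under 500 bases and the median was 1390 bases. That set holds 5869 genes of up to 85.4 FPKM, whereas the median of the 37 was 9.07 FPKM. Genes were not matched to the 37 one by one on level. Counts that were not whole occurred in 3 of the 37, POX05646, POX05884 and POX09831, beside 3.87% of all 9834 genes.

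**Figure D4:**
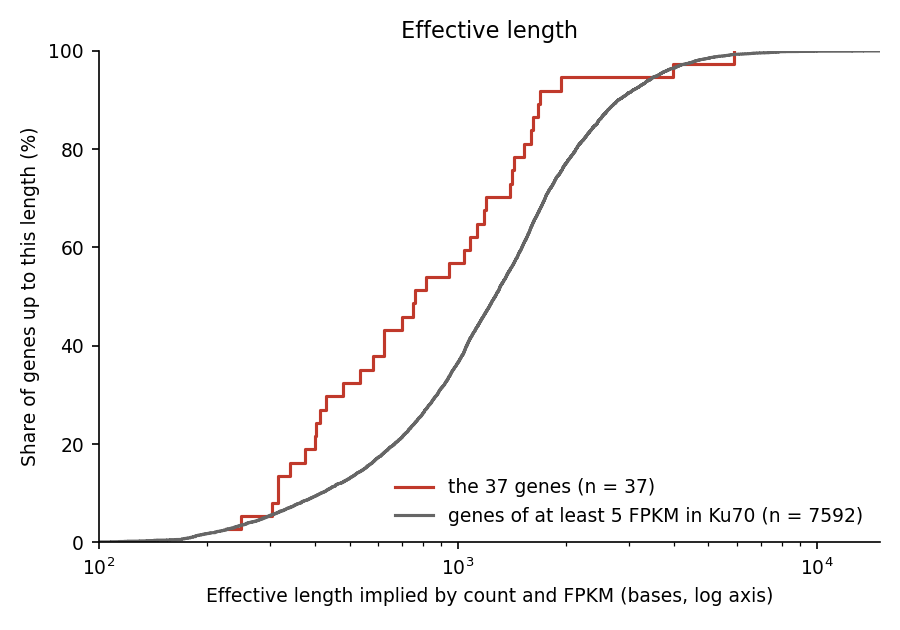
Share of genes (vertical, %) up to each effective length (horizontal, bases, log axis) for the 37 genes (red) and for the 7592 genes of at least 5 FPKM in Ku70 (grey). The red line lies to the left over most of the range, with medians of 762 and 1272 bases.

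Genes with neighbouring identifier numbers were examined as a measure that did not choose the 37, except that genes in long falling runs had been left out. Whether the numbers follow the chromosomes is not given. Of the 70 genes numbered directly before or after a member and not members themselves, 59 were tested; the other 11 were below 1 FPKM in both strains. Of the 59, 33 (55.9%) were called lower in MuPOX05503 by edgeR and 12 (20.3%) higher, while 14 passed in neither direction. Over all 8801 genes tested, 32.6% were lower and 31.9% higher. At least 2-fold lower were 19 of the 59 (32.2%), beside 13.9% of all genes tested. The median log2 fold change of the 59 was -0.40, beside 0.01 over all genes.

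The share fell off with distance. At 2 numbers away 44.8% of the genes tested were lower, at 3 numbers 39.3%, at 4 numbers 31.7% and at 5 numbers 34.9%. Larger distances were read only around the 37. Direct neighbours were also compared with those of the 1117 other genes that fell at least 2-fold, such genes being kept among the neighbours. Of the tested neighbours of these 1117, 46.1% were lower, beside 58.7% around the 37 when members are likewise kept. In the same way, 18 of the 37 (48.6%) lay in a run of at least 2 consecutive genes with R of -0.9 or lower, beside 43.0% of the other 1010 genes with such an R. Whether the 37 differ from other falling genes in this respect was not tested. With library totals in place of TMM factors, which shifted the median of all log2 fold changes upwards by 0.11, 47.5% of the 59 were lower and 20.3% higher, beside 27.7% and 38.0% of all genes tested.

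**Figure D5:**
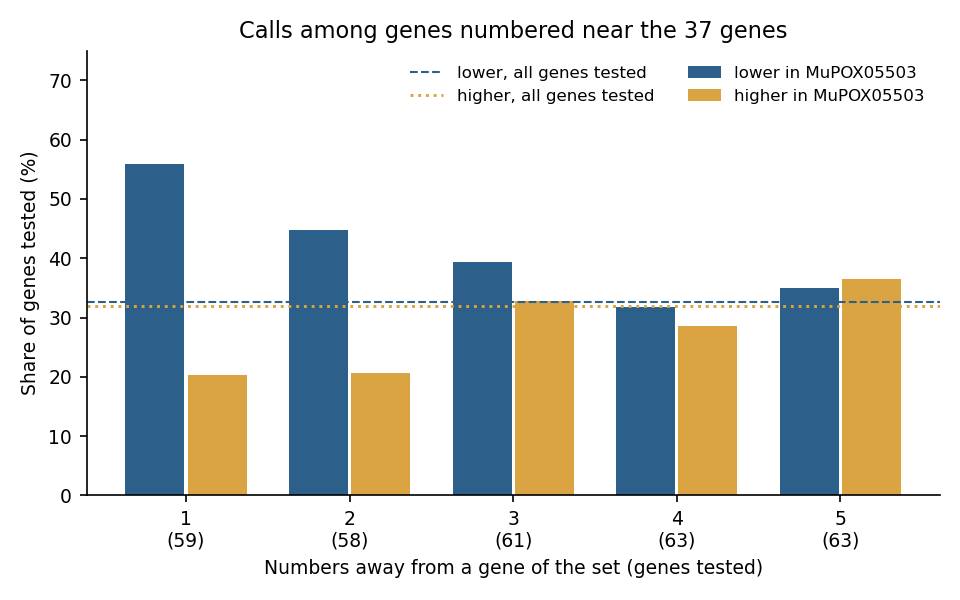
Share of tested genes (%) called lower (blue) or higher (yellow) in MuPOX05503 by edgeR at 1 to 5 identifier numbers from one of the 37 genes, with the number of genes tested in brackets; the dashed and dotted lines are the shares over all 8801 genes tested (32.6% and 31.9%). The blue bar is highest at 1 number (55.9%) and near the dashed line at 4 numbers (31.7%).

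Neighbours did not all move as the member did. POX05645, numbered before POX05646, had the largest change of any direct neighbour and rose, with 318 ± 33.0 FPKM in MuPOX05503 and 4.77 ± 0.567 FPKM in Ku70 (SD, n = 3 each; log2 fold change 5.95, SE 0.14, edgeR adjusted p = 2.84e-09). POX05646 itself had been among the genes of 12.4 to 15.6 FPKM in Ku70 and under 1 FPKM in MuPOX05503, so the 2 genes moved in opposite directions. Whether reads were counted by strand is not given in the sources used here; without it, reads from overlapping neighbours cannot be told apart.

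The neighbours with the next largest changes fell. POX07532, numbered before POX07533, had 92.6 ± 31.2 FPKM in MuPOX05503 and 1734 ± 326 FPKM in Ku70 (log2 fold change -4.33, SE 0.27, edgeR adjusted p = 5.06e-07). POX06145, numbered after POX06144, had 257 ± 47.4 FPKM in MuPOX05503 and 2721 ± 178 FPKM in Ku70 (log2 fold change -3.52, SE 0.15, edgeR adjusted p = 5.66e-08). Both were far more abundant in Ku70 than the member beside them, POX07533 at 7.88 FPKM and POX06144 at 7.65 FPKM. POX09787, POX01192 and POX01679, beside POX09786, POX01193 and POX01678, fell with log2 fold changes of -3.50, -3.46 and -3.08. POX01192 was weak in both strains, with means of 0.12 FPKM in MuPOX05503 and 1.35 FPKM in Ku70 (SE of the log2 fold change 0.61). POX01679 had 6.05 FPKM in MuPOX05503 and 47.5 FPKM in Ku70 (SE 0.14).

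Members stood next to each other in 2 places. POX00243 had 0, 0.46 and 0 FPKM in MuPOX05503, against 4.43, 7.62 and 8.15 FPKM in Ku70, beside POX00244, whose levels are given above. Of the genes around this pair, POX00242 did not pass (log2 fold change 1.28, edgeR adjusted p = 0.147), and POX00245 fell by 0.51 on the log2 scale (edgeR adjusted p = 0.0094). POX07621 had 0.09, 0.06 and 0.04 FPKM in MuPOX05503, against 9.20, 10.1 and 8.49 FPKM in Ku70, beside POX07622. With an effective length of 3980 bases, POX07621 combined many counts in Ku70, 1560 in all, with 10 in MuPOX05503, and was 152-fold lower (interval 82.5 to 318). Around that pair, POX07618, POX07619, POX07620 and POX07623 also fell, with log2 fold changes of -1.44, -2.84, -1.08 and -2.85, while POX07624 did not pass (-0.09, edgeR adjusted p = 0.48).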

How the data were processed

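RNA of 3 MuPOX05503 and 3 Ku70 mycelium samples was sequenced on an Illumina HiSeq 4000 instrument, per the labels' protocols. Separate cultures are not stated, so the spread behind each p-value may be technical. The authors deposited an expected count (estimated reads per gene, not normalized) and an FPKM value per gene and library, per the file headers. RSEM 1.2.12, Bowtie2 2.1.0, BWA 0.7.10-r789 and DESeq2 are named in the submitters' processing notes, without roles. The genome build and annotation were not given in the sources used here.

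Members were chosen on the deposited FPKM, and members and lists were set with earlier results of these data known. Expected counts were rounded and tested with edgeR 4.0.16 (R 4.3.3; TMM factors, quasi-likelihood test, Benjamini-Hochberg adjustment, threshold 0.05) for the 8801 genes reaching 1 FPKM in at least 3 libraries; the script was tested on simulated data. SE is the size of the log2 fold change divided by the root of the F statistic. Folds by counts are ratios of summed counts over summed library totals, with exact 95% conditional binomial intervals and a floor of 3 counts over a strain. Effective length is count over FPKM and library total, from Ku70 libraries with at least 10 counts. Counts further than 0.005 from a whole number were called not whole.

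Named members were the 10 highest in Ku70, those without MuPOX05503 counts, those nearest each level and those adjacent to another member. Outside the members, the 2 genes nearest each level and the 6 most changed neighbours were named; further names were added after values were seen. Alternatives were limma 3.58.1 on log2(FPKM + 1) and log2(FPKM + 0.1), DESeq2 1.42.0, other factors, no filter, a replicate block and each library left out. Planned lists of cellulase and xylanase identifiers were not used, since no identifier could be annotated. Libraries of a strain differed by a chi-square of 9.54 to 42.5 per degree of freedom, and none was identical to another.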

Additional observations from a re-analysis of the deposited data

How the results depend on the processing

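The number of members depended on the levels chosen: it was 37 as reported, 21 with 0.5 FPKM and 93 with 2 FPKM as the limit in MuPOX05503, and 16 with 10 FPKM and 60 with 3 FPKM as the limit in Ku70. Leaving out each library gave 33 to 41 members, of which 33 to 37 were among the 37. Medians in place of means gave 38 genes, 32 of them shared, and requiring every library to meet the levels gave 26, all shared. FPKM rescaled with TMM gave 34, runs kept 38, and runs of at least 3 left out 29. The summed level in MuPOX05503 was 3.63% of that in Ku70 by FPKM and 4.35% by share of counts, where long genes weigh more. Leaving out each library gave 26 to 32 direct neighbours called lower and 10 to 12 called higher, and other tools, factors and filters gave 28 to 33 and 11 to 13. A replicate block on the letters of the titles gave 5529 changed genes in place of 5672, with 31 neighbours lower and 12 higher. Each library's departure from its strain mean was also compared across strains. For pairs with the same letter r was 0.004, -0.034 and -0.015, and for pairs with unlike letters it ran from -0.064 to 0.085. What the letters mark is not stated, and with 3 libraries per strain these values cannot settle whether it is a shared batch. Under the 13 other fits, 86 of 394 recomputed fold changes of members moved by more than 1 SE and 0 reversed. Since the same contrast chose the members, a reversal was hardly possible, and nothing is read from the 0. The 75 recomputed fold changes of the 6 named neighbours all stayed past the threshold in the same direction. These 6 were named for the largest changes in the main fit of the same libraries, so nothing is read from this either. When a Ku70 library is left out most members fall under the filter on low values, since they pass it only through Ku70. Fitted sizes depend on the scale: the median log2 fold change of the 37 was -4.37 by edgeR but -2.81 by limma, on log2(FPKM + 1). In a single MuPOX05503 library 3 counts equal 0.285 to 0.288 FPKM for a gene of the members' median length, so lower values in 1 library rest on fewer than 3 counts at that length.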

Other observations

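The opposite pattern was about as frequent as the one described. A mean FPKM of at least 5 in MuPOX05503 and below 1 in Ku70 was found for 49 genes, beside the 40 genes with the levels reversed, both before any gene was left out.

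Of the 37 genes, 4 carry numbers among the last 50 identifiers, 9785 to 9834, a stretch looked at after the values were seen. They are POX09786, POX09798, POX09819 and POX09831, and only 15 genes of that stretch reached 5 FPKM in Ku70. Counts were not whole in 11 of the 50 genes. Neighbours of these 4 mostly had few or no reads or did not pass. POX09818, POX09820 and POX09830 had means of at most 0.13 FPKM in both strains, and 0.39 FPKM at most in a single library. POX09797 had 71.3 FPKM in MuPOX05503 and 68.4 FPKM in Ku70 (edgeR adjusted p = 0.669). An exception was POX09787, which fell with POX09786, at 1.57 FPKM in MuPOX05503 and 16.8 FPKM in Ku70 (edgeR adjusted p = 4.72e-06).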
